A study of Mus musculus with 4 samples.

Results

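The 10 genes described here encode subunits of the LSD1-CoREST corepressor complex and close relatives of these subunits. They are the histone demethylases Kdm1a (LSD1) and Kdm1b (LSD2), the CoREST scaffolds Rcor1, Rcor2 and Rcor3, the class I histone deacetylases Hdac1, Hdac2 and Hdac3, and the accessory subunits Hmg20b (BRAF35) and Phf21a (BHC80). They were chosen by name among corepressors that Gfi1b recruits, and all 10 were matched by Ensembl identifier among the 37140 genes that were counted in all 4 libraries. RNA-seq was done on hematopoietic stem cells (HSCs) that were flow-sorted from the tibiae, femora and humeri of C57Bl6 mice labelled Gfi1b WT or Gfi1b KO. HSCs were sorted as Lin- cKit+ Sca1+ Cd48- CD150+ according to the methods, whereas the results of the study name CD41+/CD9+ HSCs. A population of CD41low/CD9low HSCs was also sorted. Whether the HSC libraries also held CD41low/CD9low cells is therefore not settled. Each genotype and population had 1 library. Gfi1b KO mice were Gfi1b fl/fl with a tamoxifen-activated Cre expressed from the Rosa26 locus, so that the deletion was not restricted to blood cells. The controls were Rosa-Cre Gfi1b wt/fl mice according to the methods, whereas the deposited design describes flox/flox mice with or without Cre. Per the methods, KO mice and controls were both given tamoxifen before the marrow was taken. Bone marrow of several mice was pooled before sorting, and their age was not given in the sources used here.

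Gfi1b is a zinc finger repressor of the hematopoietic lineages. It docks LSD1 through its N-terminal SNAG domain, and LSD1 in turn is held by CoREST. LSD1 removes methyl groups from lysine 4 of histone H3, HDAC1 and HDAC2 remove acetyl groups from histones, and CoREST couples both activities and lets LSD1 act on nucleosomes. HMG20B and PHF21A belong to the same complex, and PHF21A reads unmethylated lysine 4. LSD2 is a related demethylase that works outside CoREST, and HDAC3 is best known from the NCoR/SMRT corepressor. The data measure the RNA of these genes, and say nothing about protein amount or assembly.

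The HSC libraries held 50781007 (WT) and 41690708 (KO) gene counts, and the CD41low/CD9low libraries 12732079 (WT) and 19123185 (KO). For a gene without reads, 3 counts would correspond to between 0.0591 and 0.236 CPM, the counts scaled to the same library total. Gfi1b, the targeted gene, had 9256 counts in WT HSCs, 49910 in KO HSCs, 611 in WT CD41low/CD9low HSCs and 9741 in KO CD41low/CD9low HSCs. Its KO/WT ratio was thus 6.66 and 10.6, above 1 in both populations. Counts over the whole gene cannot show which exons were removed, so the label was not checked by this gene, and KO stands throughout for a library labelled Gfi1b KO. Markers of HSCs (8 genes, among them Kit, Procr and Mecom) were detected in all 4 libraries with a summed level of 1732 to 2326 CPM. Kit alone had 989 to 1262 CPM. Kit, Ly6a (Sca1) and Slamf1 (CD150) encode proteins by which the cells were sorted. Markers of megakaryocytes (8 genes) summed to 1679 and 2392 CPM in HSCs and to 531 and 635 CPM in CD41low/CD9low HSCs. These 8 genes include Itga2b (CD41) and Cd9, which encode the proteins by which the CD41low/CD9low population was sorted. Markers of neutrophils and monocytes (8 genes) summed to 658 CPM in WT HSCs, 697 in KO HSCs, 1310 in WT CD41low/CD9low HSCs and 522 in KO CD41low/CD9low HSCs. The HSC libraries and the CD41low/CD9low libraries were counted on different gene annotations and differed in depth, so that population, annotation and depth cannot be told apart.

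The 3 CoREST paralogs had the largest log2 changes between the populations when both genotypes were fitted together, and their promoters are shown for that reason (RefSeq, GRCm38.p6, windows of 300 bases, most of them upstream of the start). Capitals mark AATC or its reverse complement GATT, the core that Gfi1 and Gfi1b recognise. The promoter of Rcor1 lies at chr12:111039117-111039416 on the plus strand, that of Rcor2 at chr19:7267144-7267443 on the plus strand, and that of Rcor3 at chr1:192137991-192138290 on the minus strand.
Rcor1: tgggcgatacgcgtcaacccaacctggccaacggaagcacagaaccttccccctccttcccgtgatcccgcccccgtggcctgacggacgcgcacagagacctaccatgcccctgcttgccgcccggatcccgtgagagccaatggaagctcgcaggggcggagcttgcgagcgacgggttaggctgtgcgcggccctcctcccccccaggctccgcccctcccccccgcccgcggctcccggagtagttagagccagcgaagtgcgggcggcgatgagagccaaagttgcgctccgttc
Rcor2: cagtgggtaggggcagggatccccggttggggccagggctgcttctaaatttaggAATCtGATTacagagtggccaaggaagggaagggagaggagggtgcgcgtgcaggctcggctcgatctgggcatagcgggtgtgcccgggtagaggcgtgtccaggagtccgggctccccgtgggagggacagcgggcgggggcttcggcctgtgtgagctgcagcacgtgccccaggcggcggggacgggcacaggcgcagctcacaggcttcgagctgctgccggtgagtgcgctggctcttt
Rcor3: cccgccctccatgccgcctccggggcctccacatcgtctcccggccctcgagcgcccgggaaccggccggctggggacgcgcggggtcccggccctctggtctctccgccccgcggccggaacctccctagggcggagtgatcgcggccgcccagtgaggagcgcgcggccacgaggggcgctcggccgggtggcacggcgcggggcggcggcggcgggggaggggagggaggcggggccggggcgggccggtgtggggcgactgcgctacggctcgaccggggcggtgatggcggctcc
The Rcor2 window held 2 matches, which do not overlap, and those of Rcor1 and Rcor3 held 0. Promoters were found for 8 of the 10 genes (11 windows), and 8 of the 11 windows held the motif, against 73.1% of all 32851 mouse promoter windows of the same length. The 3 windows of Hmg20b overlap. A match of 4 letters is no binding site. The GC content was 69.3%, 67.3% and 81.7% in the windows of Rcor1, Rcor2 and Rcor3, against a median of 52.7% over all windows.

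All 10 genes were expressed in each library. Levels are compared between genes as CPM per kilobase (kb) of exon, with the exact Poisson 95% interval in parentheses, which covers counting error only. Hdac2 and Kdm1a were among the 3 highest genes in each of the 4 libraries, and Rcor3 was the lowest in all of them. The level of the highest gene was 22.6 times that of the lowest in WT HSCs, 14.3 times in KO HSCs, 30.5 times in WT CD41low/CD9low HSCs and 19.8 times in KO CD41low/CD9low HSCs. The median gene with at least 10 counts had 6.12 to 7.42 CPM per kb, and 8 of the 10 genes were above the median of each library. Rcor3 was below it in all 4 libraries, and Kdm1b in all but the KO HSC library.

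**Figure D1:**
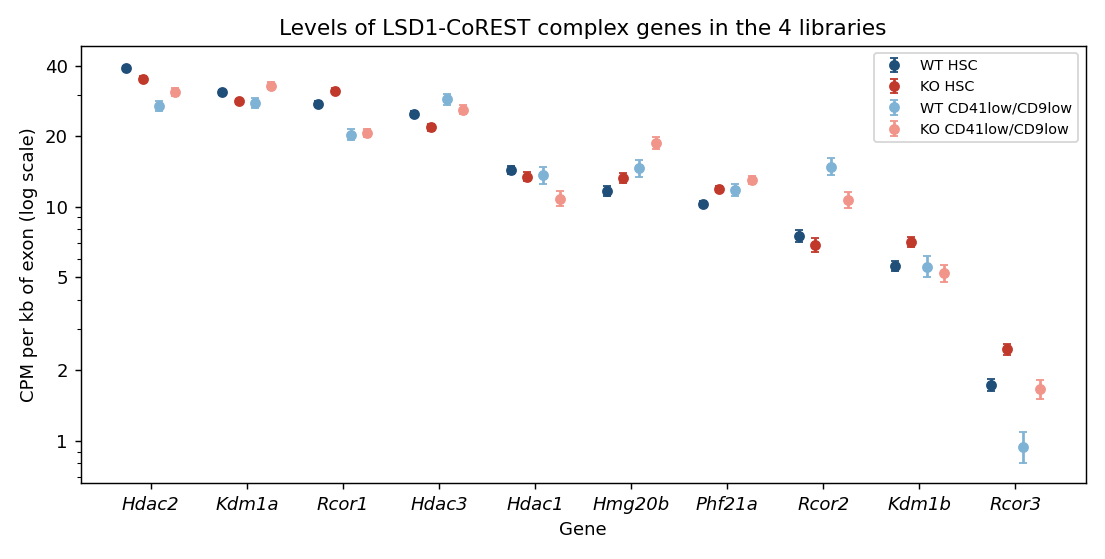
Level of each LSD1-CoREST gene in the 4 libraries, in CPM per kb of exon on a log axis; bars are exact Poisson 95% intervals, and genes are ordered by their level in WT HSCs. Hdac2 leads in both HSC libraries, Hdac3 and Kdm1a lead in the WT and KO CD41low/CD9low libraries, and Rcor3 lies lowest in all 4.

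Of the demethylases, Kdm1a (chr4:136550540-136602723, minus strand) was the major one. Its level was 30.7 CPM per kb (30.0 to 31.4) in WT HSCs, 28.2 (27.5 to 28.9) in KO HSCs, 27.7 (26.5 to 29.0) in WT CD41low/CD9low HSCs and 32.9 (31.8 to 34.0) in KO CD41low/CD9low HSCs. Its highest level was in KO CD41low/CD9low HSCs. The lowest value was in WT CD41low/CD9low HSCs, with an interval that overlapped that of KO HSCs. The level of Kdm1b (chr13:47043499-47085279, plus strand) was 5.57 CPM per kb in WT HSCs, 7.07 in KO HSCs, 5.55 in WT CD41low/CD9low HSCs and 5.19 in KO CD41low/CD9low HSCs. Kdm1a made up 84.6%, 79.9%, 83.3% and 86.4% of the CPM per kb of both demethylases in the same order. The KO HSC library stood apart for Kdm1b, with the highest level of the 4. Kdm1b shares 505 exon bases with Dek on the opposite strand, a gene with 2409 to 14339 counts, and since the strand setting of the counting was not given, reads from that stretch may be counted for neither or for the wrong gene.

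Among the CoREST scaffolds, Rcor1 was the main paralog in each library, and Rcor2 took a larger share in CD41low/CD9low HSCs. The level of Rcor1 (chr12:111039351-111115901, plus strand) was 27.5 CPM per kb (26.9 to 28.1) in WT HSCs, 31.2 (30.5 to 32.0) in KO HSCs, 20.3 (19.3 to 21.3) in WT CD41low/CD9low HSCs and 20.6 (19.8 to 21.5) in KO CD41low/CD9low HSCs. Rcor2 (chr19:7267325-7275225, plus strand), a scaffold known from neural and embryonic stem cells, was at 7.49 CPM per kb (7.07 to 7.92) in WT HSCs, 6.86 (6.42 to 7.32) in KO HSCs, 14.8 (13.6 to 16.0) in WT CD41low/CD9low HSCs and 10.7 (9.89 to 11.6) in KO CD41low/CD9low HSCs. Both HSC libraries were above both CD41low/CD9low libraries for Rcor1, and below both for Rcor2. Of the CPM per kb of the 3 scaffolds, Rcor2 made up 20.4% in WT HSCs, 16.9% in KO HSCs, 41.1% in WT CD41low/CD9low HSCs and 32.4% in KO CD41low/CD9low HSCs. The share of Rcor1 was 74.9%, 77.0%, 56.3% and 62.5%.

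Rcor3 (chr1:192098546-192138062, minus strand) was the minor scaffold, with 2.61% to 6.05% of the family. Its level was 1.73 CPM per kb (1.63 to 1.83) in WT HSCs, 2.45 (2.33 to 2.59) in KO HSCs, 0.94 (0.801 to 1.10) in WT CD41low/CD9low HSCs and 1.66 (1.51 to 1.82) in KO CD41low/CD9low HSCs. The lowest of these rests on 163 counts. The annotated exons of Rcor3, merged over all transcripts, span 13622 bases, against 3157 to 8561 bases for the other 9 genes, so that its level per kb depends on which transcripts are present. Rcor3 also shares exon bases with the antisense genes Gm10516 (336 bases, 55 to 111 counts) and Gm26879 (667 bases, 0 to 6 counts).

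**Figure D2:**
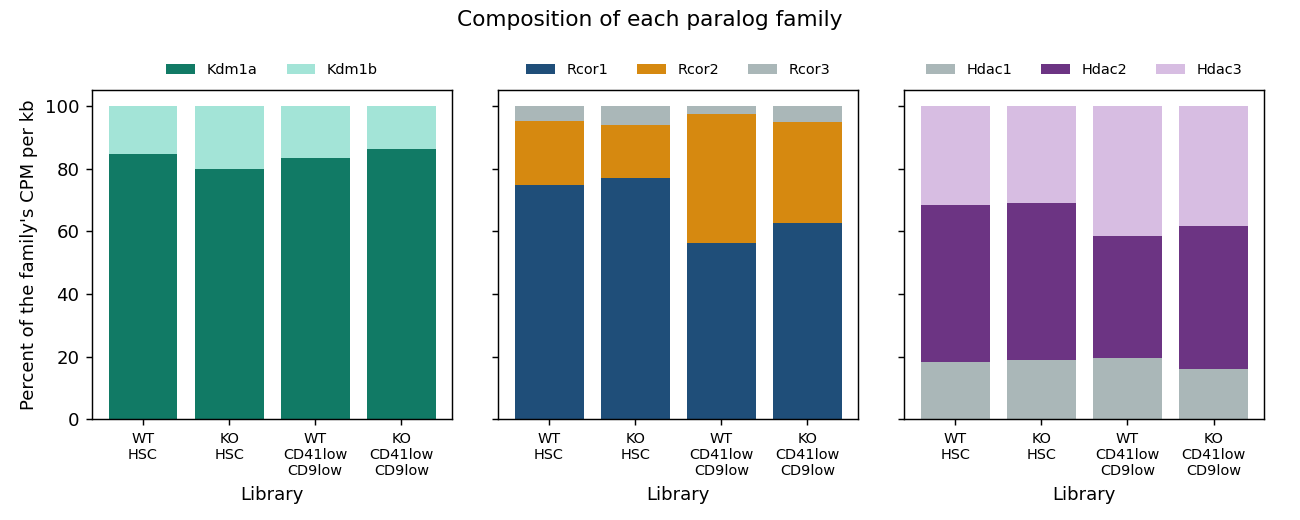
Share of each paralog in the summed CPM per kb of its family, in percent, for the demethylases (left), the CoREST scaffolds (middle) and the deacetylases (right) in the 4 libraries. The Rcor2 share is 20.4% and 16.9% in the HSC libraries and 41.1% and 32.4% in the CD41low/CD9low libraries, while Kdm1a stays between 79.9% and 86.4%.

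Hdac2 (chr10:36974544-37001889, plus strand) was the more abundant of the deacetylases that bind CoREST. It reached 39.1 CPM per kb (38.3 to 39.9) in WT HSCs, 35.1 (34.3 to 36.0) in KO HSCs, 27.0 (25.6 to 28.3) in WT CD41low/CD9low HSCs and 30.8 (29.6 to 31.9) in KO CD41low/CD9low HSCs. Hdac1 (chr4:129516104-129542713, minus strand) had 14.3, 13.4, 13.6 and 10.8 CPM per kb in the same order. Hdac2 thus made up 66.5% to 74.0% of the sum of both, and its level was higher in both HSC libraries than in either CD41low/CD9low library. Hdac3, on chromosome 18, had 24.8, 21.8, 28.7 and 26.0 CPM per kb. For Hdac3 both CD41low/CD9low libraries had higher values than both HSC libraries. However, the intervals of WT HSCs (24.2 to 25.5) and KO CD41low/CD9low HSCs (24.8 to 27.1) overlapped.

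The accessory subunits were of middle abundance. Hmg20b (chr10:81346048-81350480, minus strand), which carries an HMG box, had 11.7 CPM per kb in WT HSCs, 13.2 in KO HSCs, 14.5 in WT CD41low/CD9low HSCs and 18.7 in KO CD41low/CD9low HSCs. Phf21a (chr2:92093117-92364666, plus strand), a PHD finger protein, had 10.2, 11.9, 11.8 and 13.0 CPM per kb. For both genes the KO library was above the WT library of its population.

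To ask whether the loss of Gfi1b went along with other levels of its corepressors, KO was divided by WT within each population, after scaling by median-of-ratios size factors. A gene was called above a ratio of 1.5 or below 0.6, the limits the study used for these data, and the 95% interval in parentheses is the exact Clopper-Pearson one for counting error. With 1 library per group these ratios compare libraries, not conditions. In HSCs, 0 of the 10 genes were called in either direction, where 14.1% of 15910 genes were above and 10.3% below the limits (24.4% in all). In CD41low/CD9low HSCs, 1 of 10 was above (Rcor3) and 0 below, where 13.5% and 12% of 14844 genes were (25.5% in all). With at least 50 counts in 1 library of the pair, which all 10 genes had, the shares over all genes were 10.7% above and 5.95% below in HSCs, and 8.15% and 5.83% in CD41low/CD9low HSCs. The median absolute log2 ratio was 0.18 over the 10 genes and 0.30 over all genes in HSCs, and 0.22 and 0.27 in CD41low/CD9low HSCs. All genes here include those with as few as 10 counts, whose ratios hold more counting error. The medians are therefore not matched for counts and do not show that the 10 genes changed less. The median log2 ratio of the 10 genes in the HSC pair was 0.06, and 0.08 in the CD41low/CD9low pair.

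**Figure D3:**
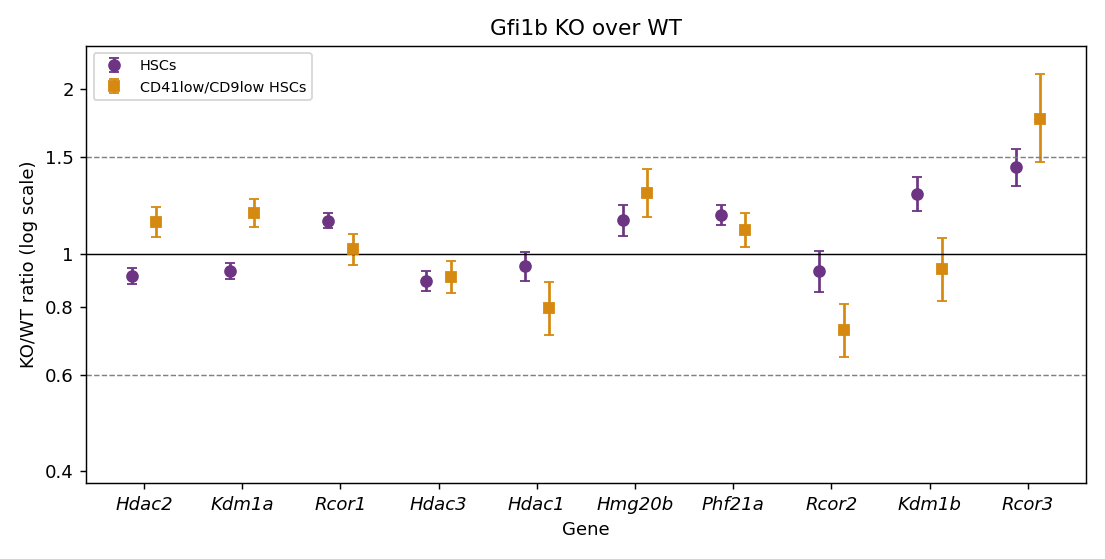
KO/WT ratio of each gene in HSCs (circles) and CD41low/CD9low HSCs (squares) on a log axis, with exact 95% intervals for counting error; dashed lines mark 1.5 and 0.6. The 1 point past a line is Rcor3 in CD41low/CD9low HSCs at 1.77, and Kdm1a and Hdac2 lie on opposite sides of 1 in the populations.

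In HSCs the KO/WT ratio of Kdm1a was 0.930 (0.899 to 0.961), and in CD41low/CD9low HSCs it was 1.19 (1.12 to 1.26). Hdac2 followed the same order, with 0.910 (0.881 to 0.940) in HSCs against 1.14 (1.07 to 1.22) in CD41low/CD9low HSCs. For both genes the populations were on opposite sides of 1, each beyond counting error. The share of all genes with such a pattern was not counted. The ratio of Kdm1b was 1.29 (1.198 to 1.38) in HSCs but 0.936 (0.821 to 1.07) in CD41low/CD9low HSCs. Rcor1 had 1.15 (1.11 to 1.19) and 1.02 (0.953 to 1.09) in the same order.

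Rcor2 was at 0.929 (0.851 to 1.01) in HSCs but 0.724 (0.647 to 0.810) in CD41low/CD9low HSCs, the lowest ratio among the 10 genes. Rcor3 was at 1.44 (1.33 to 1.56) in HSCs but 1.77 (1.47 to 2.13) in CD41low/CD9low HSCs, the highest ratio in both populations. After division by the median ratio of 500 genes of similar exon length Rcor3 was at 1.22 in HSCs and 1.75 in CD41low/CD9low HSCs. Reads outside annotated genes, per 100 reads on genes, were 80.0 in WT HSCs and 105 in KO HSCs against 62.0 and 60.1 in the CD41low/CD9low libraries, and their part in the ratios was not tested.

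In HSCs Hdac1 was at 0.948 (0.893 to 1.01), and in CD41low/CD9low HSCs at 0.794 (0.711 to 0.887). The ratio of Hdac3 was 0.891 (0.853 to 0.929) and 0.907 (0.848 to 0.971), below 1 in both populations. Hmg20b had 1.15 (1.08 to 1.23) and 1.29 (1.17 to 1.43), and Phf21a had 1.18 (1.13 to 1.23) and 1.10 (1.03 to 1.18), so that both accessory subunits were above 1 in both populations. In each population the interval was above 1 for 5 of 10 genes, below 1 for 3 and included 1 for 2. In the CD41low/CD9low pair, 8 of 8 markers of neutrophils and monocytes were lower in KO, 7 of them below 0.6. Their part in the ratios of the LSD1-CoREST genes was not tested, and in bulk samples fewer cells of a type and less RNA per cell cannot be told apart.

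The KO/WT ratio in CD41low/CD9low HSCs divided by that in HSCs had an exact conditional 95% interval that excluded 1 for 7 of the 10 genes, and for 61.1% of 13535 genes with a value in both populations. With TMM or total-count scaling it did so for 8 of the 10. It was above 1 for Kdm1a at 1.28 (1.19 to 1.36), Hdac2 at 1.25 (1.17 to 1.35) and Rcor3 at 1.23 (1.01 to 1.504). It was below 1 for Kdm1b at 0.729 (0.627 to 0.847), Rcor2 at 0.779 (0.675 to 0.900), Hdac1 at 0.838 (0.739 to 0.950) and Rcor1 at 0.885 (0.823 to 0.953). The intervals of Hdac3, Hmg20b and Phf21a included 1. The median absolute log2 difference was 0.28 over the 10 genes and 0.32 over the 13535 genes, so that the median over these genes was not above that over all genes. The 2 sets were not matched for counts. The intervals hold counting error only, and no difference between the populations could be tested among samples.

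Tests among samples were possible only in a fit over all 4 libraries, with 1 residual degree of freedom. In it the populations stand in for replicates of the genotype, and the genotypes for replicates of the population. Both libraries of a genotype may come from the same pooled mice, so the populations may not be separate replicates. By edgeR's quasi-likelihood test with Benjamini-Hochberg adjustment over 15855 genes, 0 of the 10 genes differed between KO and WT over both populations, where 1.22% of genes were higher and 0.858% lower (2.08% in all). At an unadjusted p under 0.05 there was 1 (Rcor3), and DESeq2 called 0 after adjustment and 1 before it. Rcor3 had a log2 change of 0.66 (SE 0.24, adjusted p = 0.198), and was higher in KO in both populations. Of the other 9 genes, Hmg20b had the largest positive log2 change (0.28, SE 0.18, adjusted p = 0.698) and Rcor2 the largest negative one (-0.29, SE 0.21, adjusted p = 0.764). For Kdm1a the log2 change was 0.06 (SE 0.15, adjusted p = 0.989). The same test called Gfi1b, with a log2 change of 3.05 (SE 0.16, adjusted p = 6.6e-21), higher in both populations.

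Between the populations the CoREST scaffolds and Hdac2 were called in edgeR's default fit, but not all of them in the alternative fits given below. By edgeR's quasi-likelihood test, Rcor1, Rcor3 and Hdac2 were lower and Rcor2 was higher in CD41low/CD9low HSCs, which makes 3 of 10 genes lower and 1 higher where 13.6% and 8.63% of genes were (22.3% in all). Rcor2 had a CD41low/CD9low over HSC ratio of 1.86 (1.68 to 2.06) in WT and 1.47 (1.32 to 1.63) in KO, and a log2 change over both genotypes of 0.75 (SE 0.21, adjusted p = 0.00781). Rcor1 had ratios of 0.693 (0.655 to 0.733) in WT and 0.621 (0.592 to 0.651) in KO, and a log2 change of -0.59 (SE 0.15, adjusted p = 0.00302). Both scaffolds moved the same way in either genotype, Rcor2 up and Rcor1 down.

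Rcor3 had ratios of 0.512 (0.432 to 0.603) in WT and 0.636 (0.569 to 0.709) in KO, with a log2 change of -0.79 (SE 0.24, adjusted p = 0.0131). Corrected for exon length its ratios were 0.587 and 0.881, closer to 1 in KO. Hdac2 had ratios of 0.649 (0.615 to 0.686) in WT and 0.824 (0.788 to 0.863) in KO, with a log2 change of -0.43 (SE 0.15, adjusted p = 0.0359). The call of Hdac2 was lost in edgeR's bias-adjusted fit (adjusted p = 0.0678), and DESeq2 kept only Rcor1 (adjusted p = 0.00699) of the 4 genes, with adjusted p = 0.0512 for Rcor2, 0.0825 for Rcor3 and 0.0827 for Hdac2. In these tests population cannot be told apart from annotation release and depth. Of the megakaryocyte markers, 8 of 8 were lower in CD41low/CD9low HSCs by the same test. Among them, Itga2b (CD41) and Cd9 encode the proteins by which that population was sorted, so these genes are no separate evidence. The part of the megakaryocyte markers in the population changes was not tested.

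**Figure D4:**
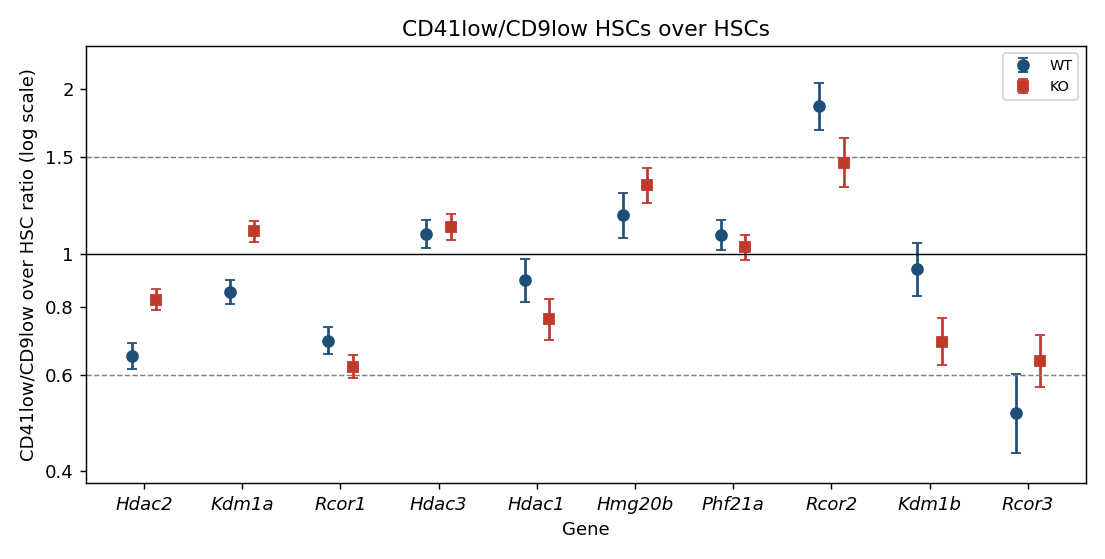
Ratio of CD41low/CD9low HSCs over HSCs for each gene in WT (circles) and KO (squares) on a log axis, with exact 95% intervals for counting error; dashed lines mark 1.5 and 0.6. Rcor2 lies highest at 1.86 and 1.47, Rcor1 is at 0.693 and 0.621, and in WT Rcor3 lies lowest at 0.512.

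By the fold limits, Rcor2 was above and Rcor3 below in WT, where 18.6% and 20.2% of 15636 genes were (38.8% in all), and 0 of 10 genes were called in KO, where 18.4% and 21.1% of 15419 genes were (39.5% in all). The calls of Rcor3 between genotypes and between populations share the WT CD41low/CD9low library with its 163 counts, so they are not separate evidence. Kdm1a had ratios of 0.850 (0.808 to 0.895) in WT and 1.10 (1.05 to 1.15) in KO, and its log2 change over both genotypes was -0.03 (SE 0.15, adjusted p = 0.943). Kdm1b had 0.937 in WT and 0.690 in KO, and Hdac1 0.895 and 0.758. Hdac3 (1.09 and 1.12), Hmg20b (1.17 and 1.33) and Phf21a (1.08 and 1.03) had ratios above 1 in either genotype, and none of these 3 passed edgeR's quasi-likelihood test (adjusted p from 0.186 to 0.753).

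Genes of 7 further groups of corepressors and histone-modifying enzymes were set beside the complex, 66 in all and each measured. In HSCs, 3 of the 66 had a KO/WT ratio above 1.5 and 0 were below 0.6, against 14.1% and 10.3% of all genes. With at least 50 counts in 1 library of the pair, which all 66 had, the shares over all genes were 10.7% and 5.95%. In CD41low/CD9low HSCs 2 were above and 1 below, against the 13.5% and 12% of all genes above and below in that pair. With at least 50 counts those shares were 8.15% and 5.83%. Hdac6, a mostly cytoplasmic deacetylase of tubulin, was the 1 gene called the same way in both populations, with 2394 (WT) and 3108 (KO) counts in HSCs, and 481 (WT) and 1465 (KO) in CD41low/CD9low HSCs. Its ratios were 1.60 (1.52 to 1.69) and 2.03 (1.83 to 2.26), and edgeR's quasi-likelihood test gave a log2 change of 0.84 (SE 0.17, adjusted p = 0.00178), higher in KO in both populations.

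**Figure D5:**
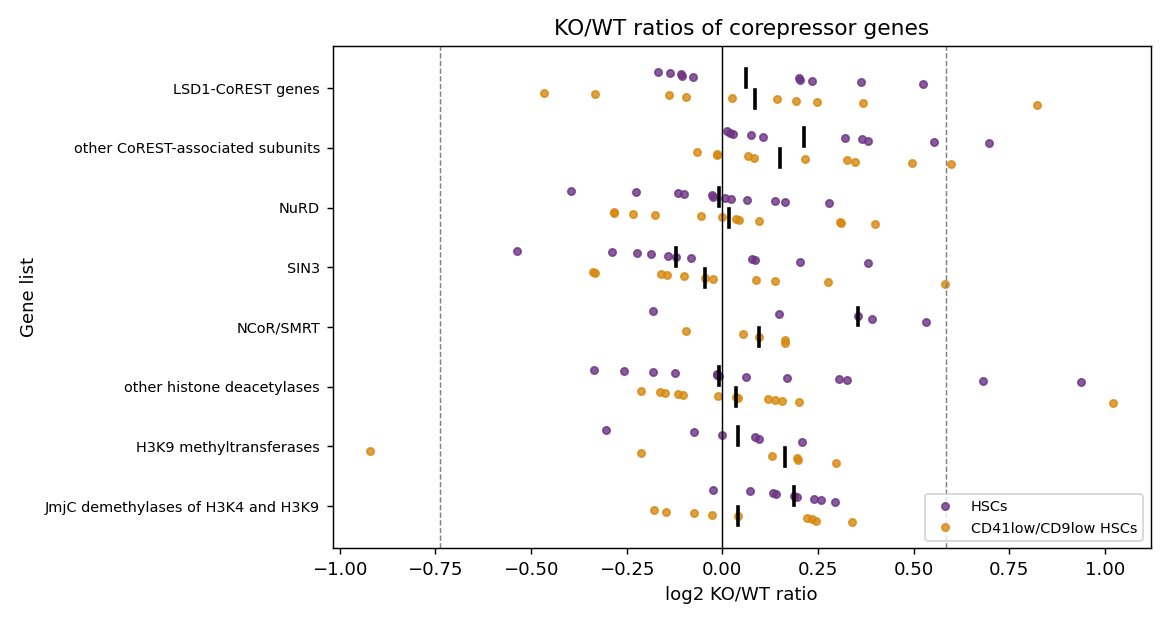
log2 KO/WT ratio of each gene of the LSD1-CoREST complex and of 7 other corepressor groups, in HSCs and CD41low/CD9low HSCs; black ticks are the medians, and dashed lines mark ratios of 1.5 and 0.6. Most genes lie between the lines in both populations, Hdac6 lies above the upper one in both, and Suv39h2 lies below the lower one in CD41low/CD9low HSCs.

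Of 10 other subunits that associate with CoREST, 10 had a ratio above 1 in HSCs (median log2 ratio 0.21, and 0.00 over all genes) and 7 in CD41low/CD9low HSCs (0.15, and 0.01 over all genes). Zfp516 was called in HSCs at 1.62 and was at 1.25 in CD41low/CD9low HSCs, and Phf21b was called in CD41low/CD9low HSCs at 1.51 (1.04 to 2.24) on 41 and 93 counts. Both calls ended with the length correction, which left Zfp516 at 1.487 and Phf21b just under the limit. Gse1, which passed the test over both populations (log2 change 0.52, SE 0.15, adjusted p = 0.0463 by edgeR) and was chosen after its values were seen, had ratios of 1.47 and 1.41. Among the NCoR/SMRT genes, the nuclear receptor corepressor Ncor1 had the largest ratio in both populations, with 1.45 and 1.12. In the NuRD group, which pairs HDAC1 and HDAC2 with a chromatin remodeller, the histone chaperone Rbbp7 was at 0.761 in HSCs and Cdk2ap1 at 1.32 in CD41low/CD9low HSCs. In the SIN3 group, Ing2 was at 0.689 in HSCs and Sap130 at 1.496, just under the limit, in CD41low/CD9low HSCs.

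Hdac9, a class IIa deacetylase, was called in HSCs at 1.91 and was at 1.15 in CD41low/CD9low HSCs. Of the H3K9 methyltransferases, Suv39h2 had the largest change in both populations, at 0.810 in HSCs but 0.528 (0.434 to 0.643) in CD41low/CD9low HSCs. Among the JmjC demethylases, the largest changes were those of Kdm4c at 1.23 in HSCs and Kdm5b at 1.26 in CD41low/CD9low HSCs, both within the limits. Over both populations, 2 of the 66 genes (Hdac6 and Gse1) were higher in KO and 0 lower by edgeR's quasi-likelihood test, against 1.22% and 0.858% of all genes. Between the populations, 7 were higher and 11 lower in CD41low/CD9low HSCs, against 8.63% and 13.6% of all genes.

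Besides Gfi1b, the SNAG-domain factor Gfi1, its close paralog, was higher in KO, with 567 and 4394 counts in HSCs and 413 and 2643 in CD41low/CD9low HSCs. Its ratios were 9.56 (8.76 to 10.5) and 4.27 (3.84 to 4.74). Both factors dock LSD1 through the same domain, and the other 8 SNAG-domain genes had at most 25 counts in any library. For Kdm1a, the demethylase they recruit, the ratios were 0.930 and 1.19. Of 10569 genes with at least 50 counts in each library, Hnrnpll, Fbxo9 and Cd274 had the pattern closest to Kdm1a over the 4 libraries (Euclidean distance of 0.016 to 0.017 on centred log2 normalised counts), and 76 genes were within 0.1.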

How the data were processed

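Per the labels, polyadenylated RNA was made into libraries with a stranded kit, and the authors aligned reads to mm10 with TopHat2 2.0.10 and SAMtools and deposited raw HTSeq counts per gene. The strand setting and annotation release are not given in the sources used here. Closing lines for reads not counted to a gene were left out. Reads assigned to no feature came to between 60.1 and 105 per 100 gene counts. Where in the genome these reads lie cannot be told from the counts. HSC libraries listed 1153 genes, and the CD41low/CD9low libraries 4074 genes, that the others did not.

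Pairs of libraries were scaled by the median of ratios, and genes with at least 10 counts in 1 library of a pair were kept. Exon lengths and coordinates came from GENCODE M21 (GRCm38). edgeR 4.0.16 (glmQLFit with its default settings, TMM, filterByExpr) was fitted to all 4 libraries with genotype and population as terms. On simulated counts it recovered 96.5% of 200 genes changed between genotypes, with 15 false calls among 15288 genes tested. Between populations it recovered 93.5% of 200, with 8 false calls among 15272. How far recovery depends on the size of a change was not tested. Recovery was not tested at the size of the changes in the 10 genes, the largest between genotypes being 1.58-fold (Rcor3). The percentages recovered are therefore not those to expect for the 10 genes. edgeR's bias-adjusted fit was chosen as an alternative after seeing the data, since the 2 fits had been exchanged by mistake in an intermediate run, and the default one, as planned, was restored as the reported fit with results of both known. Other alternatives were DESeq2 1.42.0, limma 3.58.1, other scalings, count limits, a pseudocount of 1 and a length correction. R 4.3.3 and Python 3.11.15 were used.

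The members and gene lists were chosen with earlier results of these data known. Named besides the 10 members and Gfi1b were, from the other lists, genes with at least 50 counts that passed the fold limits the same way in both populations, the gene of each list with the largest KO/WT change in each population, and the 3 genes closest to Kdm1a. The 3 promoters printed were chosen after their values were seen. Samples were grouped by their genotype and cell type labels, though the titles name Gfi1 and the genotype labels Gfi1b. Nothing says that pooled mice were separately replicated, so p-values rest on these 4 libraries alone. For each gene the spread comes from how far the genotype change differed between the populations, moderated over all genes by edgeR. It is not the spread between replicates of a condition. Erythroid markers are not reported here.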

Additional observations from a re-analysis of the deposited data

Results flagged for a closer look

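Kdm1a and Hdac2 had KO/WT ratios on opposite sides of 1 in the populations, below 1 in HSCs and above 1 in CD41low/CD9low HSCs. The ratio of their KO/WT ratios was 1.28 for Kdm1a and 1.25 for Hdac2. On the log2 scale these were 0.35 and 0.33. The median absolute log2 difference over 13535 genes, not matched for counts, was 0.32, so neither difference was unusual in size. With 1 library per genotype and population, this difference was not tested among samples.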

How the results depend on the processing

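Of the ratios of the 10 genes, 1 crossed 1 under another scaling, pseudocount or length correction, Kdm1b between populations in WT, with 0.937 against 1.008 under total-count scaling. Under total-count scaling 1 of the 10 genes (Rcor2, ratio 1.57) passed the upper limit between populations in KO. With at least 50 counts, 1431 genes were above and 792 below the limits in HSCs, and 982 and 702 in CD41low/CD9low HSCs. With the length correction, 1832 genes in WT and 2144 in KO were below the limit between populations. Between genotypes, 193 genes were higher and 136 lower in edgeR's default fit. DESeq2 gave 70 and 30, limma-voom 359 higher, RLE size factors 90 lower, and the bias-adjusted edgeR fit (chosen after seeing the data) 66 and 22. Without population as a covariate edgeR gave 0 and 0, with 175 genes at an unadjusted p under 0.05, and DESeq2 with the covariate 977. The Hdac2 genotype effect, 0.02 on the log2 scale, turned to -0.0061 without the covariate and -0.011 with limma-voom. Between populations, against 1369 higher and 2164 lower, DESeq2 gave 874 higher, and edgeR without genotype as a covariate 408 and 858. Of the 10 genes, both of these alternatives called 0 higher and 1 lower (Rcor1, adjusted p = 0.00699 and 0.0478). The bias-adjusted fit kept Rcor1, Rcor2 and Rcor3 (adjusted p from 0.016 to 0.0438) and lost Hdac2 (adjusted p = 0.0678). Without the covariate the adjusted p was 0.083 for Rcor2, 0.188 for Rcor3 and 0.12 for Hdac2. The cause was not tested. The labels give no replicate numbers by which libraries could be paired. The methods describe marrow that was pooled before the populations were sorted, so both libraries of a genotype may come from the same mice. In that case the genotype test has no separate replicates. Population entered the genotype fit only as a covariate, and genotype entered the population fit in the same way. No library was left out, since each group holds 1.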
